A study of Drosophila melanogaster with 12 samples.

Results

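Biogenic amines are made in the fly by a small set of enzymes, and 8 genes of that set were followed here in whole heads of Drosophila melanogaster: ple, Ddc, e, t, b, Hdc, Tdc2 and Tbh. A probe set, the group of short probes that reads 1 transcript on the array, was taken for a gene where the array annotation named that gene and no other. Of the 13647 probe sets that name a single gene, 7 belonged to these enzymes, 1 each for ple, Ddc, e, t, Hdc, Tdc2 and Tbh, and all 7 were bright enough to be tested. In all, 11982 genes had a probe set of their own. The gene b had no probe set of its own and was not analysed here.

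The data came from 12 Affymetrix arrays of total RNA from whole heads, in 4 groups of 3 arrays. Shu 50 is the mutant at 50 mM, Shu 0 the mutant without treatment, CS 50 the wild type given 50 mM lithium, and CS 0 the wild type without treatment. The labels of Shu 50 give the dose without the drug, and the series title names lithium. The gene table lists Shu as an older name of para, the gene of the voltage-gated sodium channel, and the labels name neither the allele nor the sex, age or length of treatment. Nothing says that the arrays of a group came from separate cultures, so the p-values measure the spread between these samples, which may be technical.

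Dopamine is made from tyrosine in 2 steps, by tyrosine hydroxylase (ple) and then dopa decarboxylase (Ddc), and Ddc also makes serotonin. Dopamine serves as a transmitter in the brain and as a building block for the pigment and hardening of the cuticle, for which ebony (e) joins it to beta-alanine and tan (t) splits the product again. The same pair recycles histamine, the transmitter of the fly's photoreceptors, which histidine decarboxylase (Hdc) makes. Beta-alanine comes in part from the decarboxylase black (b). Tyramine and octopamine, the invertebrate counterparts of adrenergic transmitters, are made by tyrosine decarboxylase 2 (Tdc2) and tyramine beta-hydroxylase (Tbh).

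Expression of ple was lower in the mutant. The ple intensity was 72.5, 91.4 and 72.2 in Shu 0 heads, against 100.1, 128.0 and 120.6 in CS 0 heads. Every Shu 0 array lay below every CS 0 array, as for 11.2% of all tested probe sets. On the log2 scale, after adding an offset of 6.26 to each intensity, ple fell by 0.53 in Shu 0 relative to CS 0 (SE 0.14, 95% interval -0.83 to -0.22, limma adjusted p = 0.0465), a difference of -30.7%. In this comparison 5.07% of the 11261 tested probe sets were called at an adjusted p under 0.05, and ple was 1 of 7 enzymes called.

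With treatment, ple read 83.7, 63.0 and 83.7 in Shu 50 heads, against 112.5, 100.4 and 81.0 in CS 50 heads. These groups overlapped, since the lowest CS 50 array lay below 2 of the 3 Shu 50 arrays. The log2 difference was -0.33 (SE 0.14, 95% interval -0.63 to -0.02), and its limma adjusted p of 0.39 missed the threshold. Averaged over both doses, ple fell by 0.43 in Shu relative to CS (SE 0.10, 95% interval -0.64 to -0.21, limma adjusted p = 0.0168), with some overlap between the 6 Shu and 6 CS arrays. In that averaged comparison 7.92% of the tested probe sets were called, and ple and t were the 2 enzymes of 7.

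The ple call between the untreated groups was close to the threshold and held in 10 of 22 alternatives. It was lost with no filter on low signal (limma adjusted p = 0.0787) or without the intensity trend in limma's prior on the spread (0.116). Fitting the 6 arrays of the pair alone (0.0531), array weights (0.0519) or a block for replicate number (0.0585) also ended it. The call depended on single arrays too. Its adjusted p was 0.169 without Shu 0 replicate 1, 0.138 without Shu 0 replicate 3, 0.131 without CS 0 replicate 2 and 0.153 without CS 0 replicate 3, and also 0.056 without Shu 50 replicate 1 and 0.0629 without CS 50 replicate 2, which enter only through the shared spread. Without CS 0 replicate 3 and Shu 0 replicate 1 together, the 2 arrays most extreme along the leading principal component, the adjusted p was 0.347 for the untreated pair and 0.098 for the average. The log2 difference of the untreated pair stayed between -0.63 and -0.45 in all 22 alternatives run.

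Ddc, the next enzyme on the route, was even across the groups. Its intensity was 828.2, 835.4 and 804.4 in Shu 50, 800.9, 793.6 and 851.3 in Shu 0, 745.9, 809.0 and 757.5 in CS 50 and 807.2, 779.6 and 829.3 in CS 0. All neighbouring groups in the order of means overlapped. Between Shu 0 and CS 0 the log2 difference in Ddc was 0.02 (95% interval -0.10 to 0.13, limma adjusted p = 0.904), and between Shu 50 and CS 50 it was 0.09 (95% interval -0.02 to 0.21, adjusted p = 0.544). Of the 4 comparisons between 2 groups, the widest Ddc interval bounds were -0.18 and 0.21, so a change as large as that of ple was outside them.

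**Figure D1:**
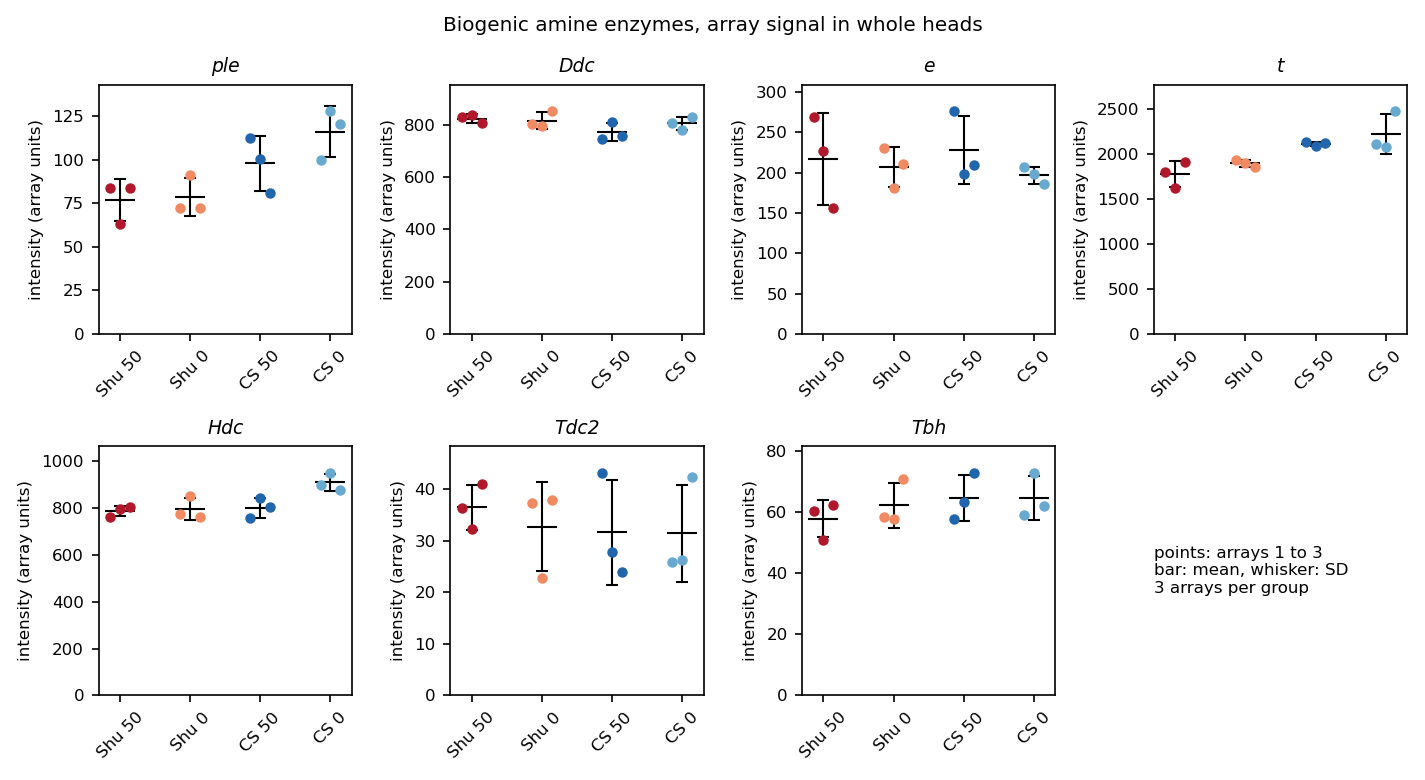
Intensity on a linear axis from 0, in array units, for the 7 enzyme genes on each of 3 arrays in Shu 50, Shu 0, CS 50 and CS 0, with the mean as a bar and the SD as a whisker. All 6 Shu arrays lie below all 6 CS arrays for t, as for 1.66% of all tested probe sets. The CS 0 arrays lie above all others for Hdc, a pattern whose share over all tested is not given here.

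The beta-alanyl conjugate hydrolase gene t was lower in Shu on every array. Its intensity was 1801, 1624 and 1906 in Shu 50 and 1936, 1894 and 1858 in Shu 0, against 2126, 2082 and 2121 in CS 50 and 2108, 2075 and 2473 in CS 0. The highest Shu array stood below the lowest CS array, and groups with the 6 Shu arrays wholly lower made up 1.66% of the tested probe sets. Averaged over both doses, t fell by 0.24 on the log2 scale in Shu relative to CS (SE 0.05, 95% interval -0.34 to -0.13, limma adjusted p = 0.008), a difference of -15.1%.

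Split by dose, the t difference was of like size, but it did not pass the test. It was -0.25 between Shu 50 and CS 50 (95% interval -0.40 to -0.10, limma adjusted p = 0.141) and -0.22 between Shu 0 and CS 0 (95% interval -0.37 to -0.07, adjusted p = 0.0787). In both pairs the 3 Shu arrays lay below the 3 CS arrays. Of all tested probe sets, 10% did so between Shu 50 and CS 50 and 11.2% between Shu 0 and CS 0. Without the intensity trend in limma's prior on the spread the averaged call was lost (adjusted p = 0.0587), and it held in the other 20 of 21 alternatives.

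The ebony gene e, whose enzyme makes the conjugates that tan splits, varied more between arrays of 1 group than between groups. Its intensity was 268.8, 226.7 and 156.0 in Shu 50, 230.5, 180.8 and 210.7 in Shu 0, 276.4, 199.1 and 210.0 in CS 50 and 206.7, 198.2 and 186.1 in CS 0. The Shu 50 arrays spanned the widest range, and every pair of neighbouring groups overlapped. Averaged over doses, the log2 difference in e between Shu and CS was -0.01 (95% interval -0.25 to 0.22, limma adjusted p = 0.963).

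Hdc, the histamine enzyme, was highest in the untreated wild type. The Hdc intensity was 761.9, 797.8 and 803.5 in Shu 50, 775.4, 850.2 and 760.1 in Shu 0, 755.6, 841.1 and 805.0 in CS 50 and 899.3, 951.2 and 878.9 in CS 0. All 3 CS 0 arrays lay above the other 9, which overlapped one another. Relative to CS 0 the log2 difference was -0.18 in CS 50 (SE 0.06, 95% interval -0.31 to -0.05, limma adjusted p = 0.173) and -0.19 in Shu 0 (SE 0.06, 95% interval -0.32 to -0.06, adjusted p = 0.0802). Neither passed the test, and the comparisons share the CS 0 arrays. Of all tested probe sets, 10% had CS 50 arrays wholly below the CS 0 arrays, and 11.2% had Shu 0 arrays wholly below them. The share with CS 0 above all 9 other arrays is not given here, so the separation alone does not set Hdc apart.

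Within the mutant, Hdc differed by -0.01 on the log2 scale between Shu 50 and Shu 0 (95% interval -0.14 to 0.12). The difference between the responses of the 2 genotypes to 50 mM was 0.17 (SE 0.09, 95% interval -0.01 to 0.36, limma adjusted p = 0.764). Without Shu 0 replicate 2, the highest of its group, Hdc passed the test between Shu 0 and CS 0 at an adjusted p of 0.0371. None of the other 21 alternatives called it there, and none of 22 called it between CS 50 and CS 0.

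Some marker values moved beside these comparisons, and their part in the results was not tested. Of 6 photoreceptor genes, 3 had a probe set, and their mean log2 level was 11.5 to 11.8 in Shu 50, 11.6 to 11.8 in Shu 0, 11.5 to 11.6 in CS 50 and 11.7 on all 3 CS 0 arrays, with 0 called in any of the 7 comparisons. Of 5 glial genes, 4 were tested, at 8.88 to 8.98 in Shu 0 against 9.01 to 9.16 in CS 0, and nrv2 was called lower (log2 difference -0.52). The median log2 difference of the 4 was -0.05, so nrv2 carried most of the shift in level. Of 7 fat body genes all were tested, at 10.8 to 11.0 in Shu 0 against 10.4 to 10.7 in CS 0, and Fbp2 was called higher (1.07). The 7 log2 differences ran from -0.07 to 1.07, with a median of 0.08. Fbp2 was dim, at a mean intensity of 36.5 in Shu 0 and 15.1 in CS 0, as was Fbp1, at 14.6 and 6.81. Between Shu 50 and CS 50 the fat body level was 10.8 to 10.9 against 10.5 on all 3 arrays, and the glial level 8.77 to 8.83 against 8.73 to 8.82.

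For the neuronal list, 3 of 5 genes were tested, at 7.97 to 8.07 in Shu 0 and 8.03 to 8.11 in CS 0, and 0 were called. Of 7 ovary and chorion genes, 6 had a probe set and none was bright enough to test. The log2 ratio of the 3' to the 5' control probe set of eIF-4a, a sign of RNA integrity, was 2.45 to 2.67 in Shu 50, 2.46 to 2.65 in Shu 0 and 2.43 to 2.51 in CS 50, against 2.66 to 2.96 in CS 0, so that CS 0 did not overlap Shu 0 or CS 50 in it. The same ratio overlapped between Shu 0 and CS 0 for both other controls, at 0.96 to 1.07 against 1.00 to 1.08 for GAPDH and 0.98 to 1.26 against 1.18 to 1.28 for ACTIN. Between CS 50 and CS 0 it did not overlap for GAPDH (0.87 to 0.99 in CS 50) and did for ACTIN (1.05 to 1.24 in CS 50). In whole heads, fewer cells that express a gene and less RNA per cell cannot be told apart.

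Of the enzymes of tyramine and octopamine, Tdc2 and Tbh showed no difference that passed the test, and Tdc1, the second tyrosine decarboxylase, is given further below. The Tdc2 intensity was 36.4, 32.2 and 41.0 in Shu 50, 37.4, 22.8 and 38.0 in Shu 0, 43.2, 27.9 and 23.9 in CS 50 and 25.8, 26.2 and 42.3 in CS 0. Each group but Shu 50 held both a low and a high array, and all groups overlapped. The log2 difference in Tdc2 between Shu 0 and CS 0 was 0.05 with a 95% interval from -0.44 to 0.54, the widest among the 7 enzymes in that comparison.

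Tbh, which turns tyramine into octopamine, read 60.3, 50.8 and 62.1 in Shu 50, 58.3, 57.5 and 70.6 in Shu 0, 57.6, 63.3 and 72.6 in CS 50 and 59.0, 72.7 and 61.7 in CS 0. The groups overlapped, with the lowest single array in Shu 50. Averaged over doses, the log2 difference in Tbh between Shu and CS was -0.10 (95% interval -0.30 to 0.10, limma adjusted p = 0.603).

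No enzyme passed the test for lithium in either genotype. Between CS 50 and CS 0, limma called 0 of 7, against 1.62% of all tested probe sets, and 1 of 7 (Hdc) had an unadjusted p under 0.05, as had 13.1% of all tested. Between Shu 50 and Shu 0, 0 of 7 were called, against 1.86% of all tested, and 0 had an unadjusted p under 0.05, as had 11.9% of all tested. With both genotypes averaged, 0 of 7 were called, against 4.13% of all tested, with Hdc again the 1 gene with an unadjusted p under 0.05, as had 16.2% of all tested.

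The median log2 difference of the 7 enzymes was -0.06 between CS 50 and CS 0 (0.00 over all tested probe sets) and -0.01 between Shu 50 and Shu 0 (-0.01 over all tested). For ple the difference was -0.24 between CS 50 and CS 0 (95% interval -0.54 to 0.07) and -0.04 between Shu 50 and Shu 0 (95% interval -0.34 to 0.27). For t it was -0.07 in the wild type (95% interval -0.22 to 0.08) and -0.10 in the mutant (95% interval -0.24 to 0.05). These intervals leave room for moderate changes, more so in ple than in t. The intervals of Tdc2 were wider, at -0.49 to 0.49 in the wild type and -0.33 to 0.65 in the mutant. Those of e were also wider than those of ple, at -0.13 to 0.52 and -0.29 to 0.37.

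The response to 50 mM was also compared between genotypes, as Shu 50 minus Shu 0 less CS 50 minus CS 0. None of the 7 enzymes was called, against 0.00888% of all tested probe sets, and 0 had an unadjusted p under 0.05, as had 6.73% of all tested. The limma adjusted p ranged from 0.764 in Hdc to 0.974 in t.

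The comparisons between genotypes hold the calls of ple and t described above. Of the 7 enzymes, 3 (ple, t and Hdc) had Shu 0 arrays that lay wholly below the CS 0 arrays, where 11.2% of all tested probe sets did so, and the same 3 had an unadjusted p under 0.05, as had 20% of all tested. Between Shu 50 and CS 50, 0 of 7 enzymes were called, against 0.506% of all tested, and 2 (ple and t) had an unadjusted p under 0.05, as had 11.6% of all tested. Over both doses, 3 (ple, t and Hdc) had one, as had 22.5% of all tested. The median log2 difference of the 7 was -0.05 between Shu 0 and CS 0 and -0.09 between Shu 50 and CS 50, beside 0.01 and -0.01 over all tested.

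**Figure D2:**
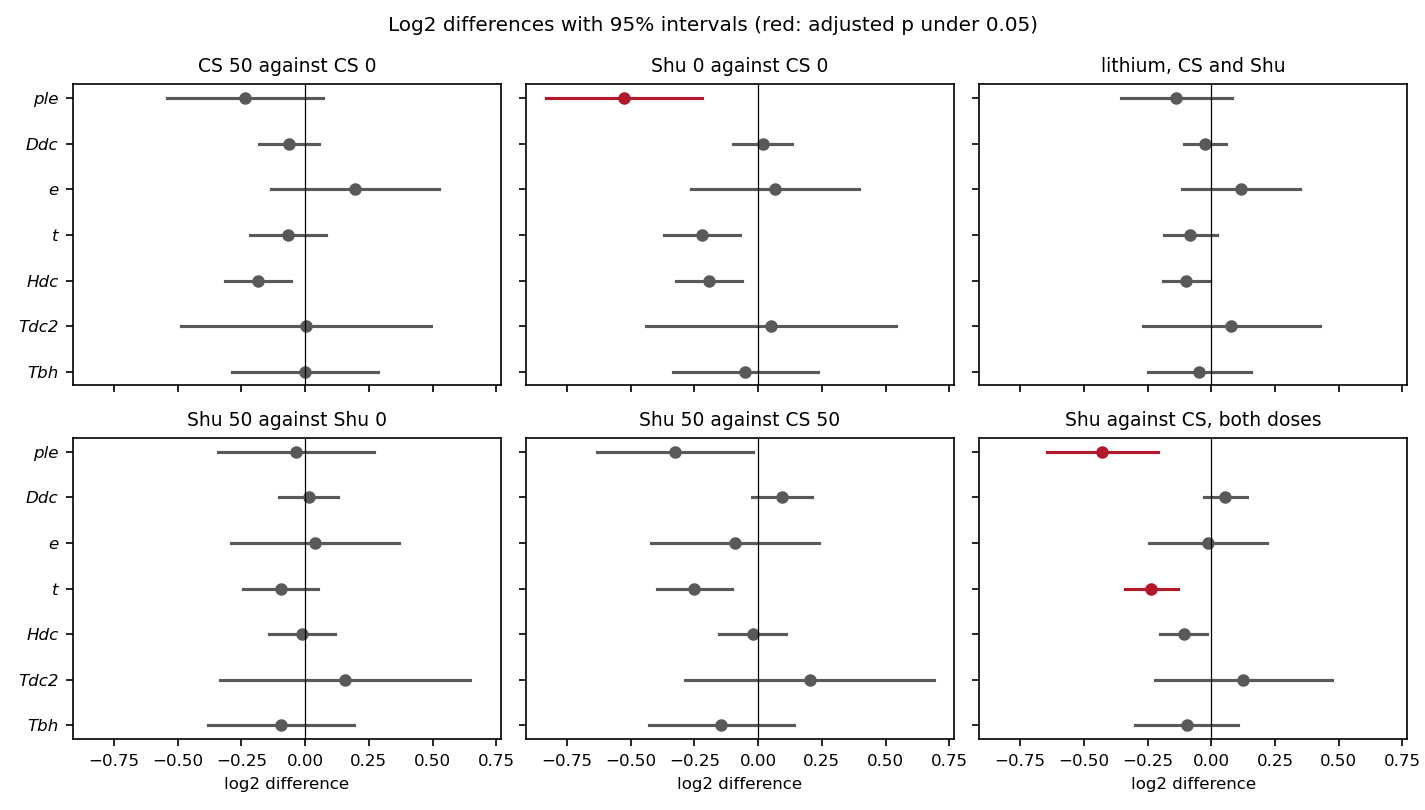
Log2 difference (x axis) of each of the 7 enzyme genes (rows) in 6 comparisons, with 95% intervals as lines and red for an adjusted p under 0.05. Red marks ple between Shu 0 and CS 0, and ple and t in Shu against CS over both doses, and the intervals of Ddc are the narrowest.

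Ordered from the lowest mean intensity up, ple averaged 76.8 ± 11.95 in Shu 50, 78.7 ± 11.0 in Shu 0, 98.0 ± 15.9 in CS 50 and 116 ± 14.5 in CS 0 (SD, n = 3 each). No neighbours in that order were separated, and the step between Shu 0 and CS 50 was 1.21 times the larger SD. The order for t was the same, at 1777 ± 143 in Shu 50, 1896 ± 39.1 in Shu 0, 2110 ± 24.1 in CS 50 and 2218 ± 221 in CS 0 (SD, n = 3 each). Here Shu 0 and CS 50 did not overlap, with a gap of 5.46 times the larger SD.

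Hdc averaged 788 ± 22.6 in Shu 50, 795 ± 48.2 in Shu 0, 801 ± 42.9 in CS 50 and 910 ± 37.3 in CS 0 (SD, n = 3 each). Its single break lay between CS 50 and CS 0, a gap of 2.55 times the larger SD. For Ddc, e, Tdc2 and Tbh no neighbours were separated.

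Across the 12 arrays, which include the differences between groups, ple and t had a Pearson r of 0.78 on the log2 scale, and 0.38 after each group's mean was removed. For ple and Hdc r was 0.65, and 0.16 within groups. Tdc2 and Hdc ran opposite to each other, with r of -0.53 over all arrays and -0.76 within groups. These values describe 12 arrays of a common scaling and carry no test.

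Among 9606 tested probe sets of other single genes, the 2 whose pattern over the 12 arrays was closest to ple were RN-tre (r = 0.96, and 0.95 within groups) and Pomp (0.95, and 0.87 within groups). Those closest to t were CG4615 (0.94, and 0.82 within groups) and CG3604 (0.93, and 0.79 within groups). For Hdc they were Cdk12 (0.87) and Ptp99A (0.84), for Ddc B52 (0.84) and Ppn (0.83), and for e vvl (0.89) and CG12134 (0.83). For Tbh they were CG16865 (0.88) and mlt (0.85), and for Tdc2 CG8679 (0.81) and CG1840 (0.80). Each was picked as the highest of 9606 values over only 12 arrays, so a high r alone does not show shared regulation, and no test was made.

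The enzymes around the core route were examined through lists of genes named for each step. Tyrosine hydroxylase needs the cofactor tetrahydrobiopterin, and all 6 genes that make, recycle or restrain it were tested. GTP cyclohydrolase (Pu), which starts cofactor synthesis, read 1838, 2147 and 1808 in Shu 50 and 2092, 2019 and 1830 in CS 50, against 2304, 2474 and 2151 in Shu 0 and 2246, 2172 and 2489 in CS 0. All 6 arrays at 50 mM lay below all 6 untreated arrays. The share of all tested probe sets separated in this way is not given here, so the separation alone does not set Pu apart. Averaged over genotypes, Pu fell by 0.24 on the log2 scale at 50 mM relative to 0 mM (SE 0.06, limma adjusted p = 0.0192). The call held in 16 of 21 alternatives. It was lost with no intensity trend (0.117), without CS 0 replicate 3 and Shu 0 replicate 1 together (0.0937), and without CS 50 replicate 3 (0.0678), Shu 50 replicate 1 (0.0589) or Shu 50 replicate 3 (0.0522).

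The next enzyme, 6-pyruvoyltetrahydropterin synthase (pr), differed by both genotype and dose. Its intensity was 1155, 1249 and 1111 in Shu 50, 1604, 1450 and 1346 in Shu 0, 1086, 1001 and 935 in CS 50 and 1164, 1073 and 1247 in CS 0. The Shu 0 arrays were the highest and did not overlap any other group. The share of all tested probe sets with this pattern is not given here. Averaged over doses, pr rose by 0.28 in Shu relative to CS (SE 0.05, limma adjusted p = 0.0057), and averaged over genotypes it fell by 0.26 at 50 mM relative to 0 mM (SE 0.05, adjusted p = 0.00926). Without the intensity trend both calls were lost (0.0514 for genotype and 0.0792 for dose), and the dose call was also lost without CS 0 replicate 3 and Shu 0 replicate 1 together (0.0641).

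Between Shu 0 and CS 0, pr rose by 0.33 (limma adjusted p = 0.0211), a call lost without Shu 0 replicate 1 (0.117) or CS 0 replicate 2 (0.0791). Between Shu 50 and Shu 0 it fell by 0.32 (adjusted p = 0.0427), a call that held in 12 of 22 alternatives and reached 0.218 without Shu 0 replicate 1. It was also lost without Shu 0 replicate 2, Shu 50 replicate 1, Shu 50 replicate 3, CS 50 replicate 2 or CS 0 replicate 1, at 0.0581 to 0.171. The pr probe set is of a kind that can also match transcripts of other genes. Of the other 4 cofactor genes none was called in the averaged comparisons, and the list's median log2 difference between Shu and CS over both doses was 0.00, beside 0.00 over all tested.

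Beta-alanine, the partner of dopamine in the ebony reaction, is also made from uracil. The gene of the first enzyme of that route, su(r), dihydropyrimidine dehydrogenase, read 372.7, 352.9 and 359.9 in Shu 50, against 260.0, 276.9 and 273.9 in Shu 0. In the wild type it read 325.1, 337.9 and 323.3 in CS 50, against 266.1, 269.8 and 234.4 in CS 0. Every array at 50 mM lay above every untreated array, again without a share over all tested probe sets to set beside it. On the log2 scale su(r) rose by 0.41 in Shu 50 relative to Shu 0 (SE 0.07, limma adjusted p = 0.00232) and by 0.35 in CS 50 relative to CS 0 (SE 0.07, adjusted p = 0.0122).

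The wild-type call for su(r) was lost without CS 0 replicate 3 (limma adjusted p = 0.0584) or CS 50 replicate 2 (0.0736), while the call in Shu held in all 22 alternatives. The 2 responses differed by 0.06 (95% interval -0.14 to 0.26, adjusted p = 0.928). Marker levels moved beside the dose, and their part in the su(r), Pu and pr differences was not tested. The glial level stood at 8.77 to 8.83 in Shu 50 against 8.88 to 8.98 in Shu 0 and 8.73 to 8.82 in CS 50 against 9.01 to 9.16 in CS 0. Among the 4 glial genes wrapper fell most, by 0.40 in the mutant and 0.85 in the wild type. The median log2 differences of the 4 were -0.07 and -0.19, with 0 called in the mutant and 1 called lower in the wild type. Of the 7 fat body genes, 2 (apolpp and Tsf1) were called lower in Shu 50 relative to Shu 0 and in CS 50 relative to CS 0, and Yp3 made it 3 over both genotypes. The list was split, since Fbp1 and Fbp2, both dim, were higher at 50 mM in both genotypes without a call. Over both genotypes the 7 log2 differences ran from -0.54 to 0.64. The fat body level was 10.8 to 10.9 in Shu 50 against 10.8 to 11.0 in Shu 0, and 10.5 on all 3 CS 50 arrays against 10.4 to 10.7 in CS 0. Of 5 muscle genes 3 were tested, and 1 (TpnC41C) was called higher in Shu 50 relative to Shu 0 and in CS 50 relative to CS 0. Act88F and up were not called, at log2 differences of -0.09 and -0.15 in the wild type and -0.07 and 0.11 in the mutant. The muscle level was 9.77 to 9.81 in Shu 50 against 9.46 to 9.74 in Shu 0, and 9.70 to 9.82 in CS 50 against 9.69 to 9.82 in CS 0. Like that of pr, the su(r) probe set may match more than 1 gene. The other 3 genes of the list, CRMP and pyd3 of the same route and Gad1, glutamate decarboxylase, had 0 calls in the 7 comparisons.

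Of 5 further amine enzymes, 3 had a probe set and were tested. The second tyrosine decarboxylase, Tdc1, fell by 0.37 in Shu relative to CS over both doses (SE 0.10, limma adjusted p = 0.0342). Its intensity was 124.7, 92.1 and 141.6 in Shu 50 and 87.9, 127.9 and 101.6 in Shu 0, against 157.4, 153.7 and 187.1 in CS 50 and 132.4, 120.7 and 129.0 in CS 0, with overlap between the genotypes. That call held in 10 of 21 alternatives. The arrays whose removal ended it were CS 0 replicates 1 and 3, CS 50 replicates 1 and 3, Shu 0 replicates 1 and 3 and Shu 50 replicates 1 and 2, at adjusted p of 0.0506 to 0.0943.

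The arylalkylamine N-acetyltransferase gene speck, whose enzyme acetylates dopamine and serotonin, read 1737, 1565 and 1576 in Shu 0, against 1374, 1397 and 1347 in CS 0. The groups did not overlap, and the share of all tested probe sets with Shu 0 arrays wholly higher is not given here. It rose by 0.24 (SE 0.07, limma adjusted p = 0.0476), and the call held in 7 of 22 alternatives. It was lost without any single array of CS 0 or CS 50, and without Shu 0 replicate 1, Shu 0 replicate 3 or Shu 50 replicate 1, at 0.0577 to 0.209. The Ddc relative amd was not called in any comparison, and Trhn and Hn, the other aromatic amino acid hydroxylases, were not analysed here.

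Transporters and receptors gave few calls. All 6 amine transporters were tested and 0 were called by limma in any of the 7 comparisons. Over both doses, 4 had an unadjusted p under 0.05 between Shu and CS, 3 lower and 1 higher, as had 22.5% of all tested probe sets. The dopamine transporter DAT differed by -0.24 (adjusted p = 0.138), and the carcinine transporter CarT, which returns beta-alanyl histamine to photoreceptors, by -0.24 (adjusted p = 0.137).

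Of 19 receptors 15 were tested. DopEcR, a receptor for dopamine and ecdysteroids, fell by 0.25 in Shu relative to CS over both doses (SE 0.06, limma adjusted p = 0.0194). It read 292.2, 303.1 and 247.2 in Shu 50 and 267.0, 266.7 and 250.3 in Shu 0, against 316.8, 334.3 and 380.9 in CS 50 and 309.8, 317.4 and 283.3 in CS 0. The genotypes overlapped through Shu 50, and without CS 50 replicate 3 the adjusted p was 0.0533. The median log2 difference of the 15 receptors was -0.08, beside 0.00 over all tested.

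**Figure D3:**
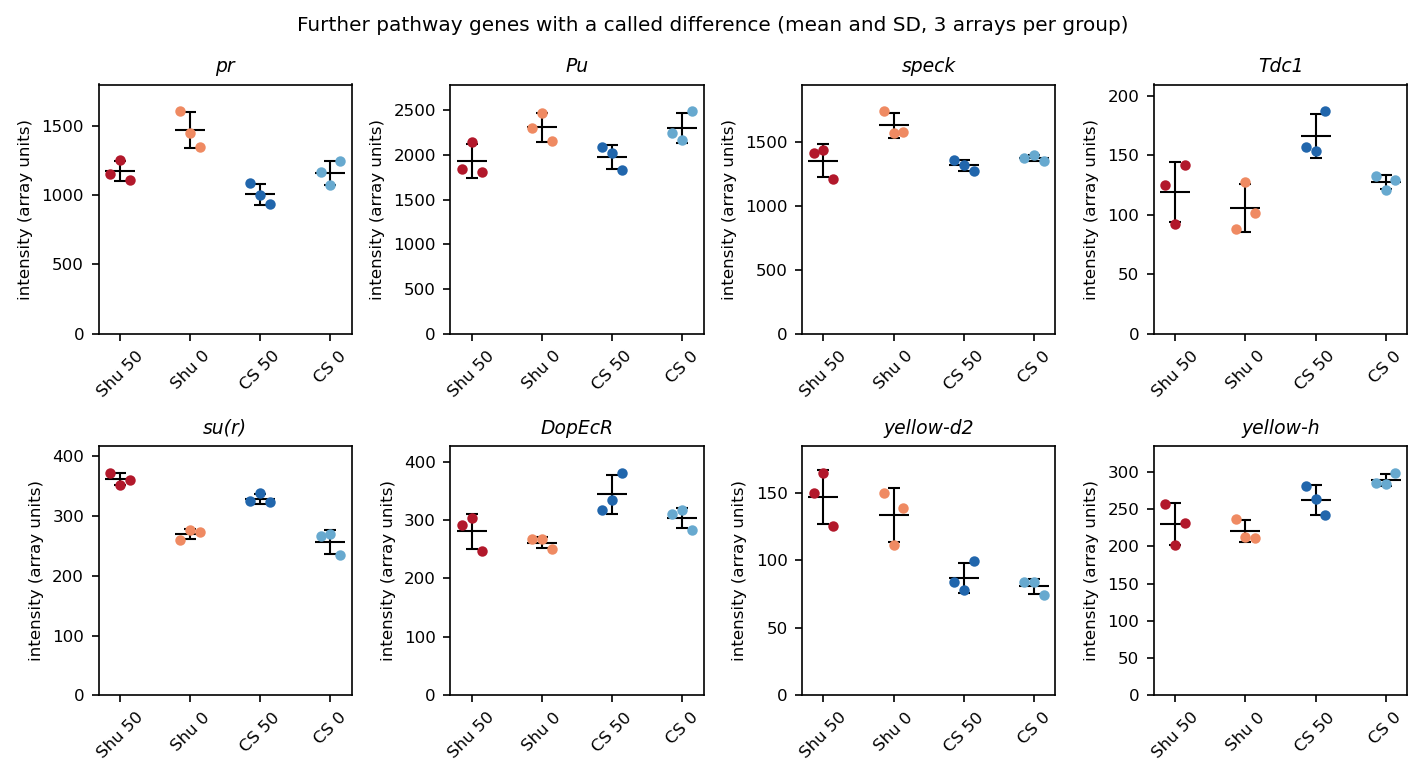
Intensity on a linear axis from 0, in array units, for 8 genes around the amine route with a called difference, on each of 3 arrays in Shu 50, Shu 0, CS 50 and CS 0, with the mean as a bar and the SD as a whisker. The su(r) arrays at 50 mM lie above the untreated ones, and the Pu arrays at 50 mM lie below them. The shares of all tested probe sets with these patterns are not given here.

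Cuticle genes downstream of dopa and dopamine were represented by the yellow family, the laccase straw and prophenoloxidases, 12 of 17 of which were tested. In Shu relative to CS over both doses, 1 rose and 1 fell. The gene yellow-d2 read 149.8, 164.7 and 125.5 in Shu 50 and 150.006, 111.2 and 138.5 in Shu 0, against 83.7, 78.1 and 99.3 in CS 50 and 83.9, 84.1 and 74.4 in CS 0. All 6 Shu arrays lay above all 6 CS arrays, a log2 difference of 0.69 (SE 0.09, limma adjusted p = 0.000268) that was called in all 21 alternatives. In this comparison 7.92% of all tested probe sets were called, and the share with Shu arrays wholly higher is not given here.

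The gene yellow-h read 257.5, 201.6 and 231.9 in Shu 50 and 237.2, 213.1 and 211.2 in Shu 0, against 281.5, 264.1 and 241.9 in CS 50 and 284.9, 284.2 and 298.9 in CS 0. It fell by 0.29 over both doses (SE 0.06, limma adjusted p = 0.01), with overlap through Shu 50 and CS 50. Between Shu 0 and CS 0 it fell by 0.38 (adjusted p = 0.0204), without overlap, a call lost without CS 0 replicate 3 (0.0843) or Shu 0 replicate 3 (0.0735). The list's median log2 difference over both doses was 0.01, beside 0.00 over all tested.

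**Figure D4:**
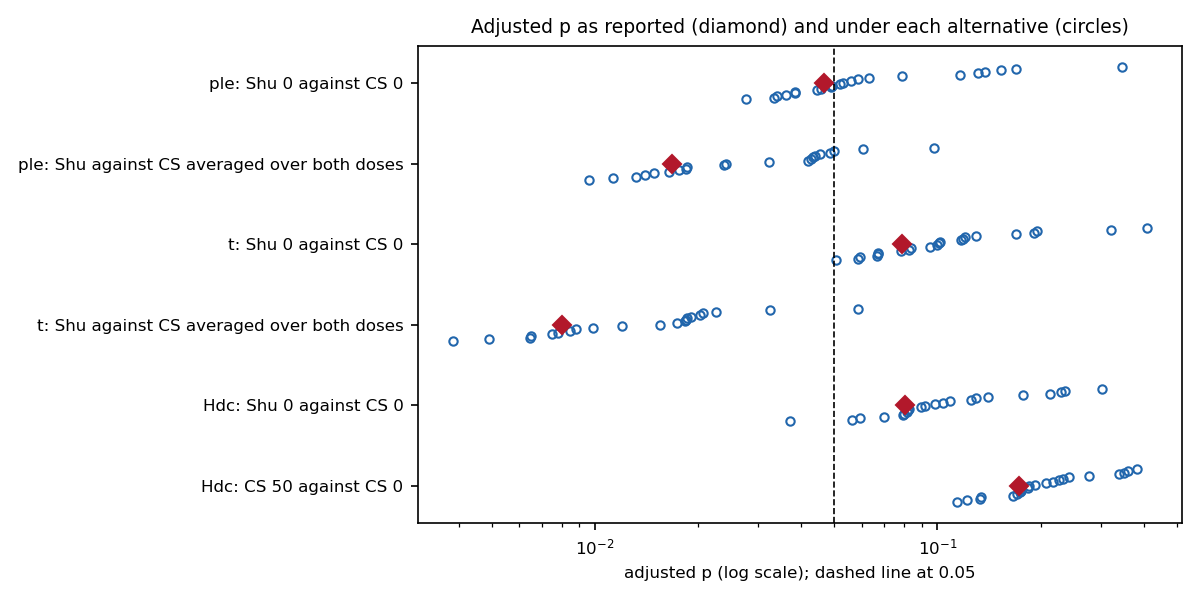
Adjusted p on a log axis for 6 comparisons of ple, t and Hdc (rows), with the reported value as a diamond, each alternative as a circle and a dashed line at 0.05. The circles of ple between Shu 0 and CS 0 fall on both sides of the line, those of t over both doses lie left of it except 1, and those of Hdc lie right of it except 1.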

How the data were processed

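The authors' deposited table holds 1 linear intensity per probe set and array. The 12 columns share a trimmed mean of 150.005 (2% of values trimmed at each end), so they were used as deposited; the labels name a standard Affymetrix protocol, and the software is not given in the sources used here. The number of arrays limits the precision. Values were taken as log2(intensity + 6.26), the offset being the 25th percentile of all values. Control probe sets (183 of 18952) and those under the 40th percentile were left out, leaving 11261. One mean per group was fitted over all 12 arrays in limma 3.58.1 (R 4.3.3; lmFit, eBayes with intensity trend), with 8 residual degrees of freedom, two-sided tests, and Benjamini-Hochberg adjustment over all tested probe sets. A gene was called at an adjusted p under 0.05. The fit was tested on simulated data for CS 50 against CS 0 only. It recovered 48 of 80 genes changed by 0.5 on the log2 scale, 66 of 80 changed by 1 and 38 of 40 changed by 2. There were 11 false calls, and changes smaller than 0.5 were not covered.

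Genes were named by the array annotation: all 8 enzymes always, up to 4 called genes of lowest p per list and comparison, up to 2 of lowest p in a list without calls, and the 2 most alike patterns per enzyme. The enzymes and lists were chosen with earlier results of these data known. Same-numbered arrays' deviations correlated at -0.06 to 0.01 between doses of a genotype and at 0.01 to 0.09, all positive, between genotypes at a dose. The numbers were not taken as pairs in the reported fit, and these values do not settle whether the genotypes were paired. Alternatives covered normalization, offset, filter, prior, array weights, arrays fitted, replicate block and left-out arrays. For CS 50 replicate 2, the title gave the number and the description gives another. Plots used matplotlib 3.10.9 (Python 3.11.15).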

Additional observations from a re-analysis of the deposited data

How the results depend on the processing

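No called difference changed direction in any alternative run. Of 49 enzyme comparisons, 19 changed sign in at least 1 alternative, and 0 of those were called. The count of enzymes called between Shu 0 and CS 0, 1 as reported, was 0 with no filter on low signal, with no intensity trend, with the 6 arrays of the comparison alone, with array weights and with the replicate block, and 0 to 2 when 1 array was left out. Over both doses, 2 enzymes were called, 0 without the intensity trend. An alternative chosen after seeing the data, leaving out CS 0 replicate 3 and Shu 0 replicate 1, gave 0 for the untreated pair and 1 over both doses. With the replicate block, ple between Shu 0 and CS 0 had a limma adjusted p of 0.0585; 4 of the 6 arrays in that pair correlated best with their own number, as did 2 of 6 for CS 50 with CS 0, 1 of 6 for Shu 50 with Shu 0 and 5 of 6 for Shu 50 with CS 50. In the other 5 comparisons the count of enzymes called stayed at 0 in every alternative.

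Calls over all tested probe sets ranged from 44 to 243 (182 as reported) between CS 50 and CS 0, 91 to 238 (209) between Shu 50 and Shu 0, 31 to 703 (571) between Shu 0 and CS 0, 25 to 133 (57) between Shu 50 and CS 50, 0 to 2 (1) for the difference of responses, 223 to 568 (465) for lithium averaged and 329 to 1067 (892) for Shu against CS averaged. With no intensity trend, ple, t and every call of the other pathway genes was lost except su(r) in Shu 50 against Shu 0 and over both genotypes, and yellow-d2 over both doses. Without CS 0 replicate 3 and Shu 0 replicate 1 together, the calls lost among the other pathway genes were those of pr and yellow-h between Shu 0 and CS 0 (adjusted p = 0.135 each), yellow-d2 (0.16) and speck (0.386) in that pair, pr between Shu 50 and Shu 0 (0.18), su(r) between CS 50 and CS 0 (0.0629), pr and Pu for lithium averaged, and Tdc1 over both doses (0.155). Low signal limits Tdc2.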
